A study of Mus musculus with 29 samples.

Results

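The comparison described here sets whole atria of transgenic mice labelled NaV1.5 against atria of control mice labelled Ctrl, both fed a regular diet (RD). Its members were chosen by genotype and diet label and are 8 of the 29 libraries of the study, 4 from NaV1.5 mice (NaV1.5_RD) and 4 from control mice (Ctrl_RD), all labelled batch 1. All mice were male. Polyadenylated RNA was sequenced after a TruSeq stranded mRNA preparation, and each library's file gives unnormalised read-pair counts by gene. Dietary treatments in the study began at 5 weeks of age, and the sources used here do not give the age at which the regular-diet atria were taken. Libraries from NaV1.5 mice (5, NaV1.5_HFD) and control mice (4, Ctrl_HFD) given high-fat diet (HFD) from the same age, for 4 weeks, were used to ask whether a difference seen on regular diet was also present in other animals of the same genotypes.

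NaV1.5 is the pore-forming voltage-gated sodium channel of heart muscle. It opens on depolarisation and carries the fast inward current of the action potential upstroke, and when it fails to inactivate fully, a late sodium current prolongs the action potential and loads the cell with sodium and calcium. In the atria, such a current favours fibrillation, and conduction from cell to cell depends on gap junction channels and on the adhesive junctions of the intercalated disc. Atrial muscle cells are also known for secreting natriuretic peptide and for their dense mitochondria.

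The labels give the genotype as NaV1.5 only. The construct, the promoter that drives it, the strain, whether the control mice carry any part of the transgene and whether each library came from a separate mouse could not be learned from the sources used here, so p-values measure the spread between these samples only. A record called flag, 717 bases long, was part of the counting annotation. It had 0 counts in every library, and a limit of 3 counts corresponds to 0.141 to 0.196 CPM (counts scaled to library size) in NaV1.5_RD and 0.0988 to 0.187 CPM in Ctrl_RD. This record therefore gave no check of the genotype labels. Total counts were 15318744 to 21343352 in NaV1.5_RD and 16040262 to 30365131 in Ctrl_RD.

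The libraries held the RNA of atrial muscle. Per kilobase of exon, the 10 most abundant genes in NaV1.5_RD were 7 genes of the mitochondrial genome and 3 genes of heart muscle, namely Nppa (atrial natriuretic peptide), Myl7 (atrial myosin light chain) and Actc1 (cardiac actin). Nppa averaged 24640 ± 2114 CPM per kilobase in NaV1.5_RD and 24616 ± 723 in Ctrl_RD (SD, n = 4 each). The 8 atrial cardiomyocyte markers had a median log2 difference of -0.01, and 0 of them passed the test. Mitochondrially encoded genes took 18.8 to 20.6% of counts in NaV1.5_RD and 18.7 to 21.9% in Ctrl_RD.

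One library stood apart from the others of its group. On the first principal component of log2 CPM, which carried 29.7% of the variance, NaV1.5_RD replicate 4 lay at 56.07 and Ctrl_RD replicate 4 at 15.19, while the other 6 libraries lay between -16.49 and -8.06. The second component (15.5%) parted the genotypes, with NaV1.5_RD at 4.44 to 24.29 and Ctrl_RD at -27.71 to -8.57. Across genes, the log2 difference between genotypes correlated with exonic length (Spearman rho = -0.243 over 16168 genes that share the same 8 libraries), and without NaV1.5_RD replicate 4 this rho was -0.0687. Without that library, the median of 24 of 44 gene lists changed by over 0.05 on the log2 scale, and the medians given below that did so are given both ways.

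Of 16168 genes tested on regular diet with edgeR's quasi-likelihood test, 2 passed an adjusted p of 0.05, which is 0.0124% of those tested. Cdh6 rose in NaV1.5_RD (1 higher gene, 0.00619%) and Scn10a fell (1 lower gene, 0.00619%). At an unadjusted p under 0.05 there were 988 genes (6.11%), of which 570 were higher (3.53%) and 418 lower (2.59%). The lowest NaV1.5_RD library lay above the highest Ctrl_RD library for 278 genes (1.72%), and the reverse held for 271 genes (1.68%). Differences were small in most of the transcriptome. The log2 difference was under 0.5 in size for 92.7% of genes and over 1 for 175, of which 158 were among the 4042 genes with the lowest expression.

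The precision behind these counts depended on expression level. The 95% interval of the genotype difference lay within 2-fold in either direction for 83.8% of genes and within 1.5-fold for 64.3%. In the 4042 most highly expressed genes these shares were 99.1% and 92.4%, and in the 4042 lowest they were 43.1% and 4.28%. For weakly expressed genes, a change of 2-fold often lay within the interval at this depth and number of samples. The intervals are not a limit of detection for the adjusted test, which larger differences also missed. Fam81a, at a log2 difference of 2.08, and Gucy2e, at -2.72, did not pass it.

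**Figure D1:**
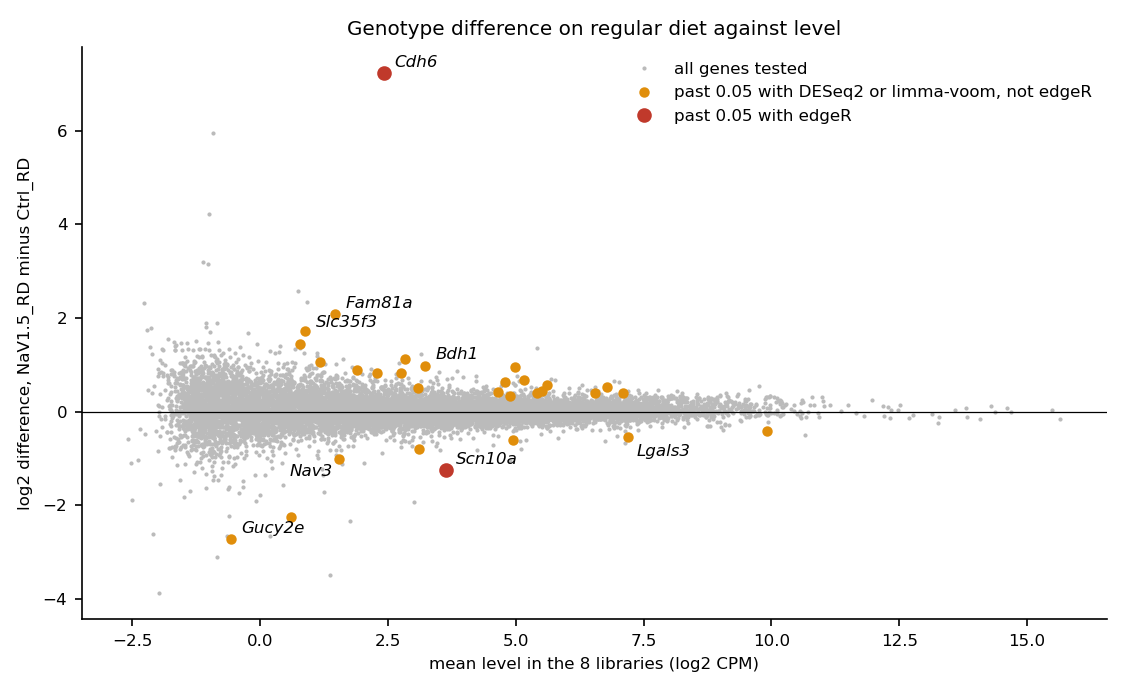
Each point is 1 of 16168 genes, with its mean level over the 8 regular-diet libraries (log2 CPM) on the horizontal axis and its log2 difference, NaV1.5_RD minus Ctrl_RD, on the vertical axis. Red points are the 2 genes past an adjusted p of 0.05 with edgeR, and orange points are the genes past it with DESeq2 or limma-voom only. Cdh6 stands apart at 7.24, and the cloud widens to the left where counts are low.

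Cdh6 encodes cadherin-6, a type II classical cadherin of cell-to-cell adhesion known from the developing kidney and nervous system. It lies on chromosome 15 at 13028701 to 13173675 of GRCm38, on the minus strand. Its level was 11.5, 12.7, 9.46 and 9.0 CPM in the NaV1.5_RD libraries and 0.130, 0, 0.104 and 0 CPM in the Ctrl_RD libraries. These values stand for 257, 237, 159 and 131 read pairs in NaV1.5_RD and 4, 0, 2 and 0 read pairs in Ctrl_RD, so the gene was close to silent in control atria. The groups were far apart, with a log2 difference of 7.24 (SE 0.36, 95% interval 6.47 to 8.0, edgeR adjusted p = 4.65e-10). With so few counts in Ctrl_RD, its size depends on single read pairs. It ran from 6.80 to 8.09 when each library was left out in turn.

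Cdh6 was 1 of 11 cadherins that passed the low-count filter, of 18 looked for, and the filter could be passed through 1 group alone. Per kilobase of exon it averaged 1.18 CPM in NaV1.5_RD and 0.00648 CPM in Ctrl_RD. Its NaV1.5_RD level was thus below that of Cdh2, the N-cadherin of the intercalated disc, at 4.87 CPM per kilobase in NaV1.5_RD and 5.87 in Ctrl_RD. It was also below that of the endothelial cadherin Cdh5, at 27.4 CPM per kilobase in each genotype. None of the other 10 passed the test, and the median log2 difference of the 11 was -0.12 (-0.18 without NaV1.5_RD replicate 4). Cdh13, also among the 11, has no transmembrane domain and is not a classical cadherin. It had 259, 256, 287 and 216 CPM in NaV1.5_RD against 305, 305, 322 and 276 CPM in Ctrl_RD, a log2 difference of -0.25 with an unadjusted p of 0.0261 in overlapping groups.

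The genes around Cdh6 had small differences. Of 16 other annotated genes within 500 kb, 4 were tested and 0 had an unadjusted p under 0.05. Drosha, the microRNA-processing nuclease 93.4 kb away, averaged 49.9 CPM in NaV1.5_RD and 49.1 CPM in Ctrl_RD, a log2 difference of 0.02 with a 95% interval of -0.16 to 0.21. Pdzd2, 288.8 kb away, had a log2 difference of -0.10 (interval -0.39 to 0.19).

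Scn10a encodes NaV1.8, a sodium channel best known from sensory neurons and also linked to cardiac conduction. It lies on chromosome 9 at 119608456 to 119719322, on the minus strand. It had 6.87, 4.72, 8.39 and 9.42 CPM in NaV1.5_RD against 19.1, 17, 18.4 and 15 CPM in Ctrl_RD. All 4 NaV1.5_RD values lay below all 4 Ctrl_RD values. The log2 difference was -1.25 (SE 0.17, 95% interval -1.62 to -0.88, edgeR adjusted p = 0.00632). The call was lost with the 8 regular-diet libraries fitted alone (-1.25, adjusted p = 0.133) and without NaV1.5_RD replicate 1 (adjusted p = 0.0563), while the difference itself stayed near its full value. Of 40 other annotated genes within 500 kb, 21 were tested and 1 had an unadjusted p under 0.05. The mitochondrial nuclease gene Exog, 142.9 kb away, had a log2 difference of -0.27 (interval -0.57 to 0.02), and the scaffold gene Wdr48, 175.6 kb away, one of -0.28 (interval -0.58 to 0.02).

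The promoter windows of Cdh6 and Scn10a are printed because these are the genes that passed the test and they moved in opposite directions. Both are from RefSeq on GRCm38.p6, read 5′ to 3′ on the minus strand, and capitals mark the 50 bases from the RefSeq start onward. The Cdh6 window is chr15:13173626-13173925 and the Scn10a window is chr9:119718983-119719282. For Cdh6, the RefSeq start is also that of the gene as counted, 13173675. The counted Scn10a gene begins at 119719322 on the minus strand. Its whole window thus lies inside the counted gene and is not sequence upstream of it.
Cdh6: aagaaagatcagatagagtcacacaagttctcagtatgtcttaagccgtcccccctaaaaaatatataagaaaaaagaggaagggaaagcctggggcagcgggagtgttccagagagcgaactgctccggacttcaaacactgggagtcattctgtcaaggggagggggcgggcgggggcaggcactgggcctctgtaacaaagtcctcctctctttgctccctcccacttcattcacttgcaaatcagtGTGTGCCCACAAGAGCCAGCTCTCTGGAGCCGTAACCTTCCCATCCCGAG
Scn10a: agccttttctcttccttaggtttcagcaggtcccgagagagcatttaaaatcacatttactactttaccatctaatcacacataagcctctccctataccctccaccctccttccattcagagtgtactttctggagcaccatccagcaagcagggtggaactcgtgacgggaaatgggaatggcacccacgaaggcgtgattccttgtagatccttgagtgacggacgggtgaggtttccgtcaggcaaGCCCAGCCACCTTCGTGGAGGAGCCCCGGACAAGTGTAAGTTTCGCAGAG
The windows were 53.0% and 51.7% G and C, beside a median of 52.7% over 32851 windows of the same length. Searched on both strands, 5 short motifs gave no match in either window. They were the TATA box TATAAA (in 13.6% of all windows), the GATA motif AGATAA (11.2%), the T-box motif AGGTGT (13.7%), the E-box CACGTG (7.15%) and the AP-1 motif TGACTCA (5.2%).

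The next genes in order of p did not pass and are given as values. Among the 12 higher genes with the smallest p, Fam81a came after Cdh6, with 7.32, 5.90, 1.85 and 2.82 CPM in NaV1.5_RD against 1.17, 0.751, 1.19 and 1.10 CPM in Ctrl_RD. Replicates 1 and 2 of NaV1.5_RD lay well above replicates 3 and 4, and all 4 lay above Ctrl_RD (log2 difference 2.08, SE 0.35, adjusted p = 0.0689). Tmem100, a membrane protein of endothelium downstream of bone morphogenetic protein signalling, had 60.7, 55.6, 57.1 and 61.0 CPM in NaV1.5_RD against 39.2, 47.7, 34.5 and 36.8 CPM in Ctrl_RD. Its groups did not overlap (0.57, SE 0.10, adjusted p = 0.078), and the 14 endothelial markers, of which it is 1, had a median of 0.06. Prxl2b, a thioredoxin-like prostaglandin F synthase, had 40.9, 45.9, 35.7 and 54.0 CPM in NaV1.5_RD against 26.7, 24.8, 25 and 34.2 CPM in Ctrl_RD (0.67, SE 0.13, adjusted p = 0.136).

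Bdh1 encodes the mitochondrial dehydrogenase that interconverts the ketone bodies hydroxybutyrate and acetoacetate with NAD as its cofactor. It had 14.3, 16.4, 8.69 and 10.2 CPM in NaV1.5_RD against 5.69, 8.01, 4.56 and 6.98 CPM in Ctrl_RD. The groups did not overlap, and the log2 difference was 0.98 (SE 0.20, adjusted p = 0.165). Dok5, an adaptor of receptor tyrosine kinases, had a difference of 0.82, Rps6ka6, a ribosomal S6 kinase, one of 1.06, and Vps8, a subunit of an endosomal tethering complex, one of 0.33 (adjusted p = 0.165 each). Vps8 was narrow in range, at 33.9, 30.9, 33.2 and 34.2 CPM in NaV1.5_RD against 26.5, 26.2, 26.0 and 26.3 CPM in Ctrl_RD. Slc35f3, a membrane carrier linked to thiamine transport, differed by 1.72, Stmnd1 by 0.83, Esrrb, an orphan nuclear receptor related to the oestrogen receptor, by 0.63 and Abhd18 by 0.44 (adjusted p = 0.222 to 0.237). Of the 12 higher genes, 11 did not overlap between groups, beside 1.72% of all genes, and the exception was Esrrb. The genes were ordered by the test, so that count is a description.

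Among the 12 lower genes with the smallest p, Gucy2e came after Scn10a. It encodes a guanylate cyclase of the retina and was barely expressed, at 0, 0.107, 0.298 and 0.344 CPM in NaV1.5_RD against 0.911, 0.751, 1.35 and 1.61 CPM in Ctrl_RD (-2.72, SE 0.56, adjusted p = 0.165). Nav3 is a microtubule-binding neuron navigator and, despite its symbol, no sodium channel. It had 2.15, 2.31, 2.08 and 1.17 CPM in NaV1.5_RD against 4.88, 3.25, 3.89 and 3.61 CPM in Ctrl_RD, again without overlap (-1.01, SE 0.21, adjusted p = 0.165). Lgals3, galectin-3, a lectin made by macrophages and linked to fibrosis, had 134, 119, 129 and 96.5 CPM in NaV1.5_RD against 143, 177, 185 and 190 CPM in Ctrl_RD (-0.54, SE 0.13, adjusted p = 0.278). Of 18 macrophage markers, 16 had a log2 difference above 0, with a median of 0.15, and their summed level was 1031 to 1324 CPM in NaV1.5_RD and 842 to 1269 CPM in Ctrl_RD.

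Sbk3, a kinase gene that was the most abundant of the 12 lower genes, had 791, 789, 921 and 784 CPM in NaV1.5_RD against 1290, 1138, 1005 and 950 CPM in Ctrl_RD (-0.42, adjusted p = 0.466). Lrrc75b differed by -0.79 and Thtpa, a thiamine triphosphatase, by -0.73. Vcl encodes vinculin, which links cadherins and integrins to actin, and had 6.82, 3.81, 5.77 and 5.43 CPM in NaV1.5_RD against 9.63, 7.19, 8.66 and 7.92 CPM in Ctrl_RD (-0.61, SE 0.17, adjusted p = 0.531). Nck2, an adaptor of actin assembly, differed by -0.41. Tank, a regulator of innate immune signalling, differed by -0.37 and Ddx42, an RNA helicase, by -0.25. The adjusted p of these 7 genes was 0.261 to 0.531, and all 12 lower genes were free of overlap between groups, beside 1.68% of all genes.

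**Figure D2:**
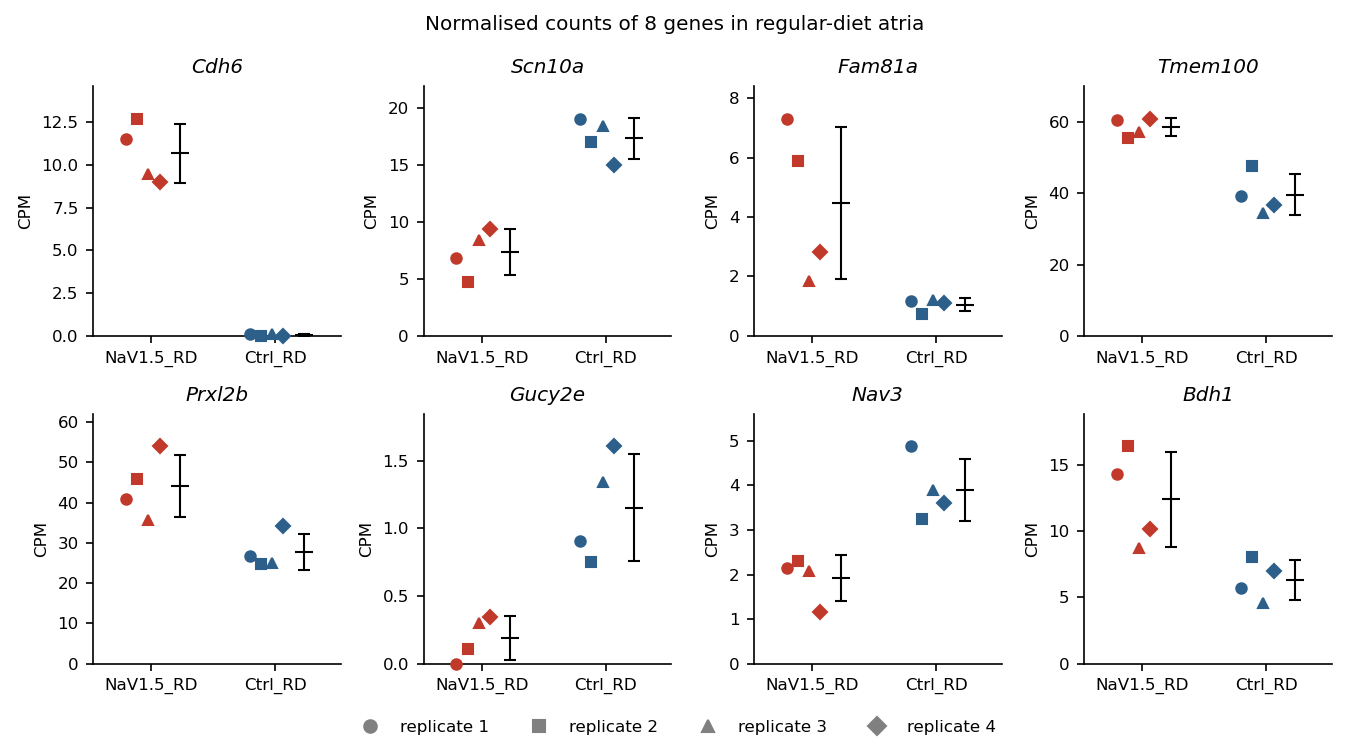
Normalised counts (CPM) of 8 genes in the 8 regular-diet libraries, with NaV1.5_RD in red on the left of each panel and Ctrl_RD in blue on the right. Each point is a library, with the marker giving its replicate, and the black bar is the mean ± SD of the 4 libraries. Cdh6 and Scn10a passed the test, and the other 6 genes lay in groups that did not overlap but did not pass.

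Other tests of the same counts called more genes. DESeq2 called 27 genes (0.167%), 20 higher and 7 lower, and limma-voom called 15 (0.0928%), 12 higher and 3 lower. The tools shared 12 genes and called 30 between them, and both called Cdh6 and Scn10a. In edgeR's order of p, the DESeq2 genes lay within the first 46 and the limma-voom genes within the first 217. Fam81a reached an adjusted p of 2.25e-05 with DESeq2 and 0.102 with limma-voom. Slc39a8, a zinc and manganese transporter called by limma-voom at 0.0183, had 21.1, 18.1, 18.5 and 39.4 CPM in NaV1.5_RD against 35.5, 34.1, 31.2 and 46.8 CPM in Ctrl_RD. NaV1.5_RD replicate 4 and Ctrl_RD replicate 4, whose numbers do not mark a known pair, were each the highest library of their genotype. Without NaV1.5_RD replicate 4 the log2 difference was -0.94 (edgeR adjusted p = 0.00678), against -0.61 with it (0.651). Chd6, a chromatin remodeller, had 125, 137, 135 and 119 CPM in NaV1.5_RD against 73.0, 86.2, 108 and 92.3 CPM in Ctrl_RD, and was called by DESeq2 (0.0322) and limma-voom (0.0325) but not by edgeR (0.278). Ccnd2, the cell cycle regulator cyclin D2, had 181, 165, 145 and 129 CPM in NaV1.5_RD against 118, 108, 123 and 124 CPM in Ctrl_RD, and was called by limma-voom only (0.0469).

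The high-fat diet libraries gave a second look at these genes. That difference shares no library with the regular-diet one, but all 17 libraries entered 1 fit, so the low-count filter and the estimate of spread behind the p-values are shared. Ctrl_HFD replicate 4 is the only library of batch 2, so the batch term absorbs it, and the difference rests on 5 NaV1.5_HFD and 3 Ctrl_HFD libraries. Of the 12 higher genes, 12 had a positive difference on high-fat diet and 11 an unadjusted p under 0.05, where 4.24% of all genes were higher at that p. Of the 12 lower genes, 10 had a negative difference and 8 an unadjusted p under 0.05, where 3.8% of all genes were lower at that p. At an adjusted p of 0.05, 14 genes passed on high-fat diet (0.0866%), and 8 of these 24 genes were among them. They were Cdh6, Dok5, Rps6ka6 and Abhd18 in the higher direction and Scn10a, Gucy2e, Lgals3 and Sbk3 in the lower.

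On high-fat diet, Cdh6 had 11.8, 8.99, 8.51, 8.15 and 10.5 CPM in NaV1.5_HFD against 0.234, 0.0932, 0.303 and 0.0492 CPM in Ctrl_HFD (log2 difference 5.61, edgeR adjusted p = 1.65e-08). Scn10a had 7.99, 4.83, 6.33, 7.58 and 5.72 CPM in NaV1.5_HFD against 14.2, 14.9, 12.7 and 18.3 CPM in Ctrl_HFD (-1.10, adjusted p = 0.0144). Lgals3 had 109, 88.9, 98.0, 87.5 and 79.3 CPM in NaV1.5_HFD against 161, 127, 174 and 220 CPM in Ctrl_HFD (-0.74, adjusted p = 0.0269). In none of these 3 genes did the groups overlap. Bdh1 had 7.51, 7.74, 10.01, 10.1 and 11 CPM in NaV1.5_HFD against 5.03, 4.23, 3.51 and 1.87 CPM in Ctrl_HFD (1.11, adjusted p = 0.0638). In all, groups did not overlap on high-fat diet for 12 of the 12 higher genes and 7 of the 12 lower ones. The share of all genes free of overlap on that diet was not counted. These CPM values include Ctrl_HFD replicate 4 and are not corrected for batch. Thtpa (0.19 on high-fat diet), Nck2 (0.04) and Tank (-0.08) were among the lower genes that did not reach an unadjusted p of 0.05 there.

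Whether the genotype difference itself differed between diets was tested as an interaction, and 0 genes passed with edgeR, DESeq2 or limma-voom, with 366 genes (2.26%) at an unadjusted p under 0.05 by edgeR. For Cdh6 the difference was 1.63 smaller on high-fat diet on the log2 scale, given as -1.63 with an interval of -3.08 to -0.18 and an unadjusted p of 0.0299, and it rests on single counts in the control libraries. For Scn10a the change was 0.15 (interval -0.37 to 0.67). Thtpa had a change of 0.92 (interval 0.35 to 1.48, unadjusted p = 0.00293), Nck2 one of 0.45 (0.11 to 0.79, unadjusted p = 0.0128) and Vps8 one of -0.22 (-0.43 to -0.02, unadjusted p = 0.0362). The edgeR adjusted p of the interaction was 1 for all 24 genes.

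**Figure D3:**
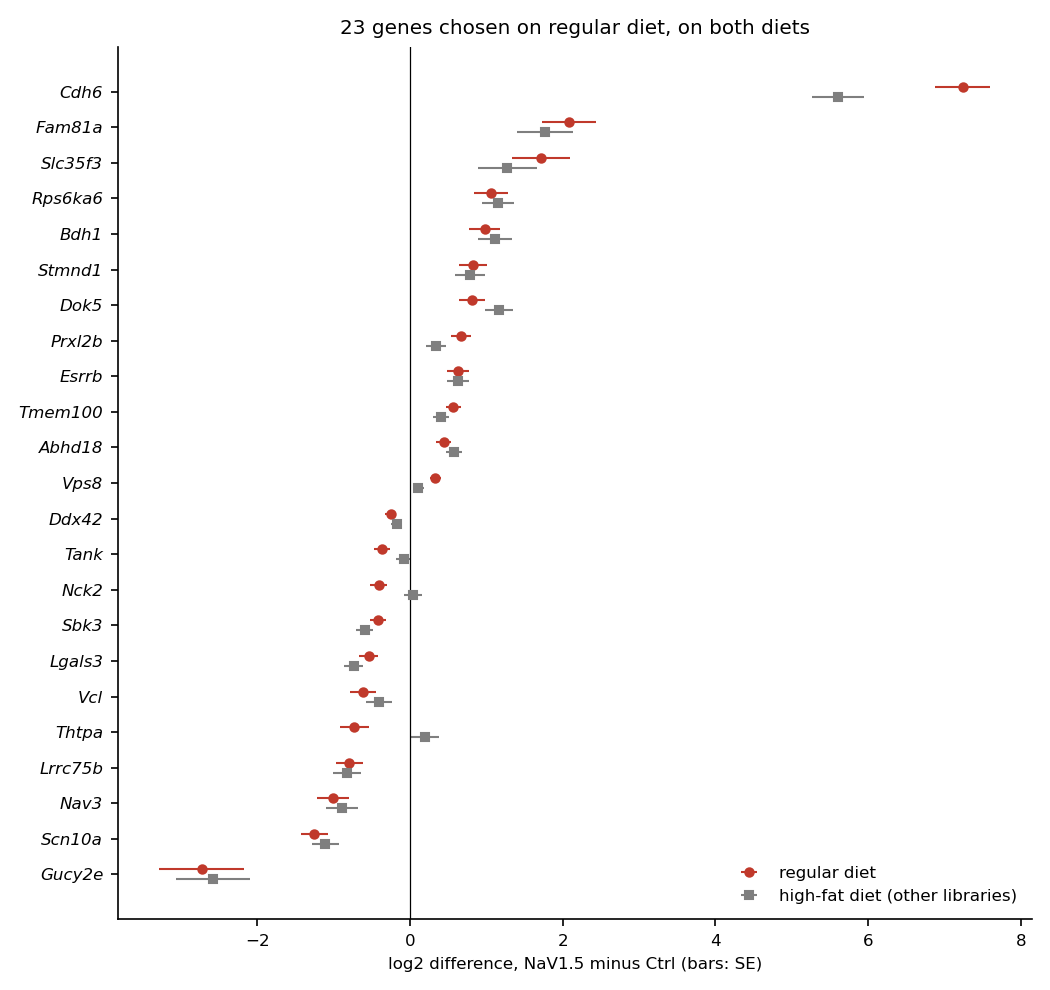
Log2 differences, NaV1.5 minus Ctrl, for the 12 higher genes and 11 of the 12 lower genes with the smallest p on regular diet. Red circles are the regular-diet libraries and grey squares the high-fat diet libraries, with bars for the SE. All 12 higher genes lie right of 0 on both diets, and Thtpa and Nck2 are the lower genes shown whose high-fat value lies right of 0.

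Gene lists are described next by how many members lay on either side of 0 and by their median, beside a median of 0.01 over all genes tested. In them, 0 genes other than Cdh6 and Scn10a passed the test. In bulk atria, fewer cells of a type and less RNA per cell cannot be told apart.

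Ion channel genes gave few differences. Of 14 sodium channel subunits, 9 were tested, 3 above 0 and 6 below, with a median of -0.16 on the log2 scale, which was 0.03 without NaV1.5_RD replicate 4. Scn7a, a sodium-sensing channel of glia and other cells, had a log2 difference of 0.17 (95% interval -0.09 to 0.42), and the skeletal muscle channel gene Scn4a one of -0.16 (-0.64 to 0.33). Of 18 channel partners, Fgf12, which modulates sodium channel inactivation, had 150, 144, 141 and 170 CPM in NaV1.5_RD against 184, 189, 167 and 186 CPM in Ctrl_RD (-0.26, unadjusted p = 0.01), with slight overlap. Cav3, the muscle caveolin, differed by 0.20 (unadjusted p = 0.0247). Of 23 potassium channel genes, 14 lay below 0 (median -0.08, and -0.0031 without NaV1.5_RD replicate 4). Kcnj2, an inward rectifier that sets the resting potential, had 44.3, 46.8, 42.0 and 45.6 CPM in NaV1.5_RD against 36.5, 40.6, 32.6 and 35.0 CPM in Ctrl_RD, with no overlap (0.31, unadjusted p = 0.00928), and the accessory subunit gene Kcne4 differed by 1.03 at low counts (unadjusted p = 0.00169).

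Of 21 calcium cycling genes, 9 lay above 0 and 12 below, with a median of -0.04. Atp2a2, the calcium pump of the sarcoplasmic reticulum, had 9225, 8770, 9982 and 8132 CPM in NaV1.5_RD against 11729, 11480, 9843 and 9607 CPM in Ctrl_RD, groups that overlap (-0.24, unadjusted p = 0.042). Ryr2, the calcium release channel, differed by -0.28 (unadjusted p = 0.0365) and Cacnb2, a calcium channel subunit, by -0.28 (0.0361). Among 22 genes of adrenergic and muscarinic signalling (median -0.10, and -0.04 without NaV1.5_RD replicate 4, with 15 below 0), Rgs2, a brake on G protein signalling, differed by 0.64. It had 146, 152, 145 and 184 CPM in NaV1.5_RD against 99.1, 141, 73.8 and 89.6 CPM in Ctrl_RD, with no overlap (unadjusted p = 0.00961).

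Junction genes of the intercalated disc lay lower as a list. Of 21 genes, 17 were below 0, with a median of -0.15, and the median lay between -0.16 and, without NaV1.5_RD replicate 4, -0.09 when each library was left out. These genes are long, with a median exonic length of 6436 bases against 3994.5 over all genes tested. With offsets for gene length and GC content, the list median was -0.12. At an unadjusted p under 0.05 there were 7 lower genes and 0 higher ones, beside 2.59% and 3.53% of all genes, and 5 of the 21 had groups that did not overlap, beside 1.68% of all genes that were lower in this way. These 5 were Vcl, the connexin genes Gja5 and Gja1, the alpha-catenin gene Ctnna1 and the desmosomal cadherin gene Dsg2. Gja5, which encodes the atrial gap junction protein connexin 40, had 114, 76.6, 101 and 118 CPM in NaV1.5_RD against 166, 160, 126 and 141 CPM in Ctrl_RD (-0.53, SE 0.18, unadjusted p = 0.00822, adjusted p = 0.636). Gja1, which encodes connexin 43, had 239, 232, 223 and 228 CPM in NaV1.5_RD against 275, 260, 282 and 244 CPM in Ctrl_RD (-0.20, unadjusted p = 0.027). Ctnna1 had 512, 450, 498 and 427 CPM in NaV1.5_RD against 589, 551, 548 and 529 CPM in Ctrl_RD (-0.23, unadjusted p = 0.0152). The largest of these 5 differences was that of Vcl, at -0.61, and none passed the test after adjustment. Vcl averaged only 0.67 CPM per kilobase in NaV1.5_RD and 1.02 in Ctrl_RD, against 73.4 and 86.2 for Ctnna1. The Vcl groups overlapped on high-fat diet, with a log2 difference of -0.40. On high-fat diet, in other libraries, the median of the same 21 genes was -0.14.

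NAD metabolism was examined because the study's title names it. Of 28 genes listed, 26 were tested, 11 above 0 and 15 below, with a median of -0.05. Their summed level was 665, 685, 685 and 667 CPM in NaV1.5_RD against 718, 723, 713 and 700 CPM in Ctrl_RD, so that all 4 NaV1.5_RD libraries lay below all 4 Ctrl_RD libraries. This was the only 1 of 44 lists (2.27%) whose sums did not overlap, and 3.4% of single genes did not. On high-fat diet the same sums were 698, 664, 698, 676 and 694 CPM in NaV1.5_HFD against 727, 705, 707 and 690 CPM in Ctrl_HFD, where the groups overlapped through Ctrl_HFD replicate 4.

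Single members of the list moved little, and abundant members weigh most in the sum. The largest falls in mean CPM were those of Nampt (72.6 in Ctrl_RD, 64.4 in NaV1.5_RD) and Parp3 (46.5 and 39.8). Both had groups that overlapped. Nmnat3, a mitochondrial enzyme that joins the NAD molecule, had 16.3, 14.3, 16.6 and 16.4 CPM in NaV1.5_RD against 18.7, 19.1, 19.4 and 18.2 CPM in Ctrl_RD (-0.25, unadjusted p = 0.0179). Nt5e, the ectonucleotidase CD73, had 19, 18.8, 13.9 and 19.3 CPM in NaV1.5_RD against 20.9, 22.1, 21.5 and 22.1 CPM in Ctrl_RD (-0.29, unadjusted p = 0.0227). Slc25a51, the mitochondrial NAD carrier, had 55.8, 58.9, 60.6 and 53.5 CPM in NaV1.5_RD against 63.2, 62.5, 64.6 and 63.9 CPM in Ctrl_RD (-0.15, unadjusted p = 0.0399). Nmnat3, Nt5e and Slc25a51 were the only 3 of the 26 members without overlap between groups, beside 1.68% of all genes that were lower in this way. Their adjusted p was 0.769 to 0.80. Nampt, the rate-limiting enzyme of NAD salvage, differed by -0.18 (95% interval -0.52 to 0.16), and Nmrk2, the muscle kinase of nicotinamide riboside, by -0.55 (-1.13 to 0.03). Of the NAD consumers, Parp1 differed by -0.09 (-0.36 to 0.17), Parp3 by -0.22 (-0.47 to 0.02) and Cd38 by -0.07 (-0.33 to 0.19). Sirt1 differed by -0.24 (-0.53 to 0.05) and Sirt3, the main mitochondrial sirtuin, by 0.07 (-0.11 to 0.24).

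**Figure D4:**
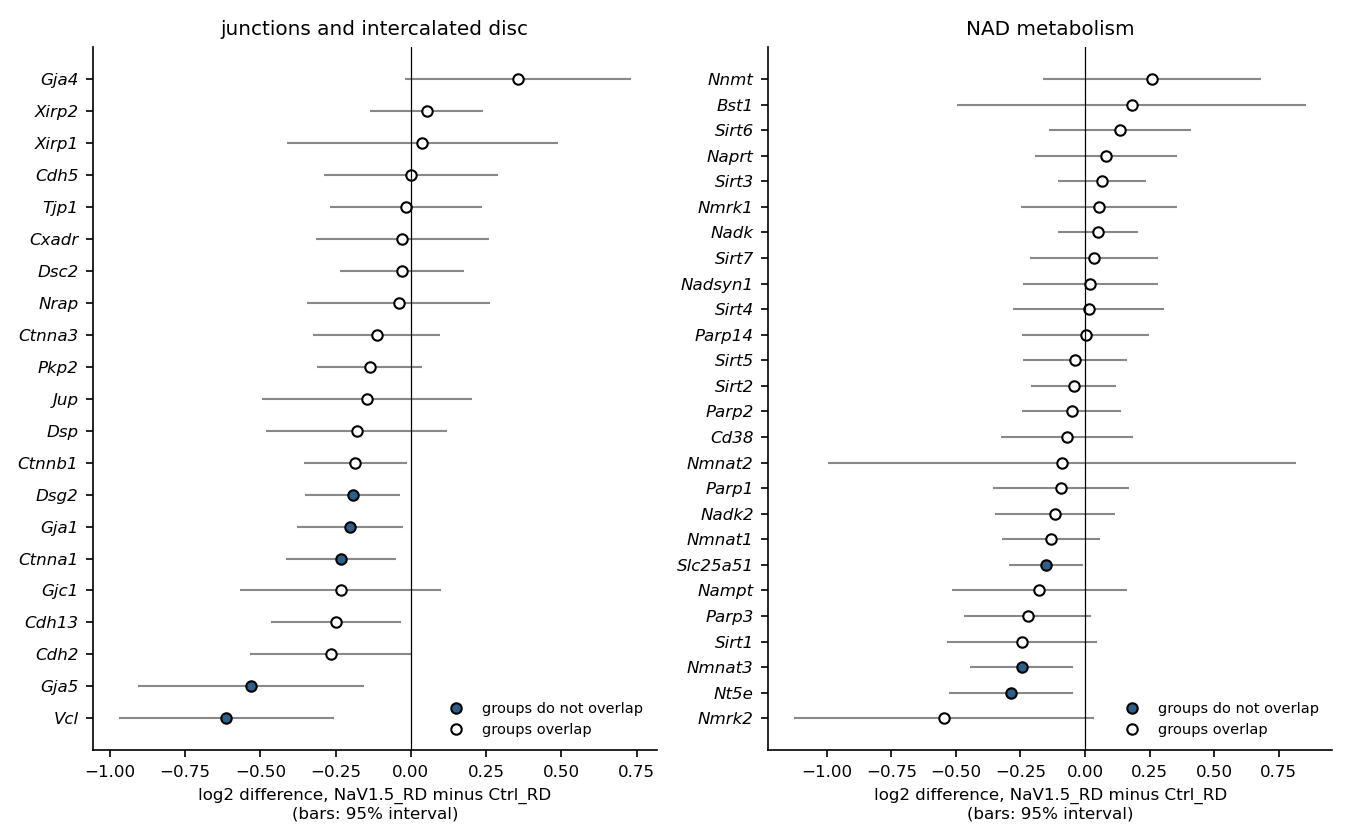
Log2 differences, NaV1.5_RD minus Ctrl_RD, with 95% intervals, for the 21 genes of the junction list and the 26 tested genes of the NAD list. Filled points mark genes whose groups of 4 libraries did not overlap. These are 5 junction genes and 3 NAD genes, all left of 0.

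Nuclear genes of the respiratory chain lay above 0 in 71 of 74 cases, with a median of 0.21. Their summed level was 43605, 47017, 45563 and 63239 CPM in NaV1.5_RD against 42893, 45318, 40373 and 47920 CPM in Ctrl_RD. The high value was that of NaV1.5_RD replicate 4, and without that library the median was 0.05, against up to 0.28 when others were left out. With offsets for gene length and GC content, it was 0.13. Ndufc2, a subunit of complex I, had 178, 190, 190 and 297 CPM in NaV1.5_RD against 158, 166, 146 and 178 CPM in Ctrl_RD (0.40, unadjusted p = 0.00615, and 0.20 without NaV1.5_RD replicate 4). The ATP synthase subunit Atp5l differed by 0.44 in groups that overlap (unadjusted p = 0.00245). Its difference was as low as 0.30 when each library was left out, and NaV1.5_RD replicate 4 was again the highest library, at 37.4 CPM. The 58 ribosomal protein genes were all above 0, with a median of 0.23, and rested on the same library. Their sum was 15076, 15159, 14872 and 27086 CPM in NaV1.5_RD against 14022, 14829, 14041 and 18744 CPM in Ctrl_RD, and without NaV1.5_RD replicate 4 their median was -0.04. Most of these genes are short, with a median exonic length of 1631 bases for the respiratory chain and 1923.5 bases for the ribosomal list, against 3994.5 bases over all genes tested. The part of transcript length in these medians was not tested further. The 11 mitochondrially encoded genes tested had a median of -0.01, and of -0.09 without NaV1.5_RD replicate 4.

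Metabolic lists outside the respiratory chain stayed near 0. Fatty acid uptake and oxidation had a median of -0.03 over 34 genes, glucose use one of -0.02 over 27 and fatty acid and cholesterol synthesis one of -0.05 over 25. In these 3 lists 0 genes had an unadjusted p under 0.05. Regulators of mitochondrial biogenesis and dynamics had a median of -0.01 over 20 genes, and 0 had such a p. Of 19 circadian clock genes, 17 lay below 0, with a median of -0.09, and only Hlf, a clock output factor, had an unadjusted p under 0.05 (-0.26, unadjusted p = 0.0491).

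**Figure D5:**
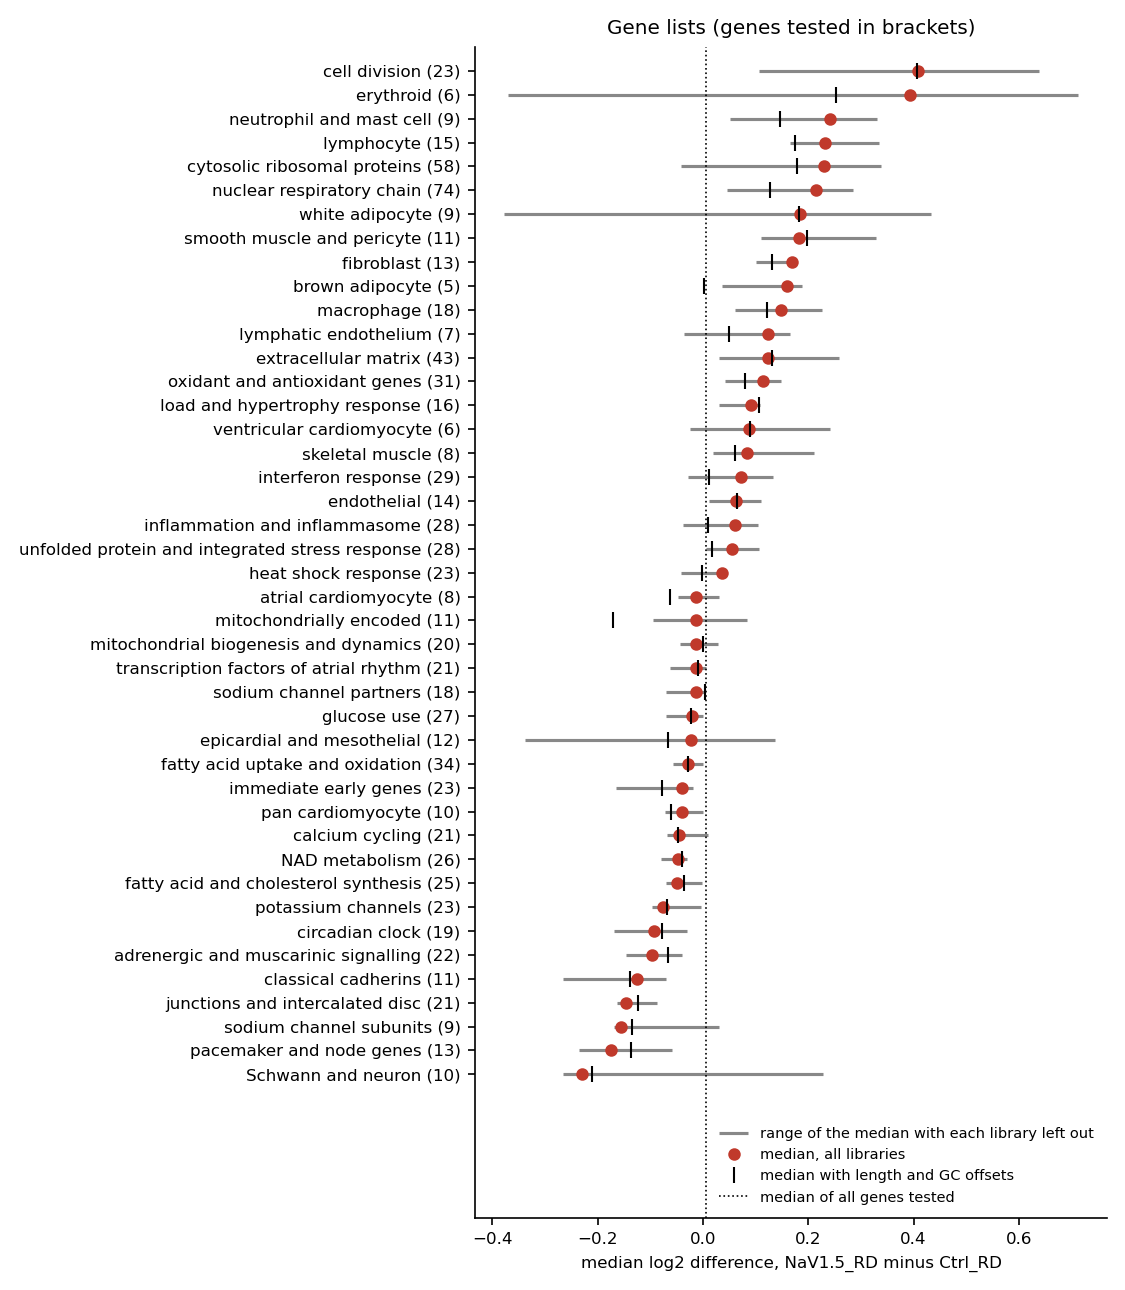
Median log2 difference, NaV1.5_RD minus Ctrl_RD, of the gene lists with at least 5 tested members. Red points use all libraries, grey lines span the medians with each of the 8 libraries left out, black ticks use offsets for gene length and GC content, and the dotted line is the median of all genes. The lines of the respiratory chain, ribosomal, erythroid and white adipocyte lists are long. That of the junction list stays left of 0, as do others, among them those of the pacemaker, adrenergic, circadian clock and NAD lists.

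Lists of stress and load held 0 genes that passed. Among 28 genes of the unfolded protein and integrated stress responses (median 0.05, 21 above 0), Chac1, a glutathione-degrading target of the stress factor ATF4, had 9.70, 11.3, 15.4 and 12.4 CPM in NaV1.5_RD against 8.52, 6.57, 7.77 and 7.73 CPM in Ctrl_RD. Its groups did not overlap (0.66, unadjusted p = 0.00127, adjusted p = 0.466). Manf, a secreted factor of the endoplasmic reticulum, differed by 0.36 (unadjusted p = 0.00441). The heat shock list had a median of 0.04 over 23 genes, the oxidant and antioxidant list one of 0.11 over 31 (0.04 without NaV1.5_RD replicate 4), with 24 above 0, and the load and hypertrophy list one of 0.09 over 16. Nppa differed by 0.00 and Ankrd1, a stretch-responsive gene, by -0.50 (95% interval -1.02 to 0.02). Acta1, the skeletal actin gene of the fetal programme, gave 2.57 through NaV1.5_RD replicate 3 alone: it had 0.404, 0.859, 10.1 and 0 CPM in NaV1.5_RD against 0.455, 0.813, 0.674 and 0.0392 CPM in Ctrl_RD, and differed by -0.11 without that library.

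Extracellular matrix genes lay above 0 in 37 of 43 cases, with a median of 0.12 that ran from 0.03 to 0.26 as libraries were left out (0.25 without NaV1.5_RD replicate 4), and 0 were higher at an unadjusted p under 0.05. The only gene at that p was Timp3, an inhibitor of matrix proteases, with 66.0, 53.2, 60.4 and 74.0 CPM in NaV1.5_RD against 79.0, 81.1, 86.9 and 79.2 CPM in Ctrl_RD, lower without overlap (-0.36, unadjusted p = 0.018). Cell division genes lay above 0 in 19 of 23 cases, with a median of 0.41 that ran from 0.11 without NaV1.5_RD replicate 1 to 0.64 (0.62 without NaV1.5_RD replicate 4). Their summed level was 126, 93.6, 86.8 and 79.1 CPM in NaV1.5_RD against 92.8, 73.7, 103 and 81.5 CPM in Ctrl_RD, groups that overlap broadly. Ccnb1, cyclin B1, differed by 1.08 (unadjusted p = 0.00812) at under 1 CPM in each library.

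Markers of the cell types that whole atria can hold overlapped between genotypes in their summed level for all 17 marker lists. Fibroblast markers lay above 0 in 12 of 13 cases (median 0.17, and 0.10 without NaV1.5_RD replicate 4), with sums of 8021, 7807, 8219 and 8771 CPM in NaV1.5_RD against 7884, 7231, 7118 and 7494 CPM in Ctrl_RD. Mfap5, a microfibril protein, was the fibroblast marker with the smallest p, at 110, 105, 116 and 104 CPM in NaV1.5_RD against 74.8, 78.0, 98.8 and 93.1 CPM in Ctrl_RD (0.34, unadjusted p = 0.024). Endothelial markers summed to 2888 to 3424 CPM in NaV1.5_RD and 2600 to 3251 CPM in Ctrl_RD, and lymphocyte markers to 76.6 to 132 CPM in NaV1.5_RD and 55.1 to 102 CPM in Ctrl_RD. Pan-cardiomyocyte markers summed to 48472 to 52555 CPM in NaV1.5_RD and 49817 to 55889 CPM in Ctrl_RD. The only markers at 0 in all 8 libraries were Chat, which makes acetylcholine in neurons, and Scgb3a2 of lung airway. The part of cell makeup in the list medians above was not tested.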

How the data were processed

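Polyadenylated RNA of whole atria was sequenced, and the deposited files hold raw read-pair counts per gene, 1 file per library. Per the file headers, the authors counted with featureCounts 2.0.1 on GENCODE vM25 genes. STAR 2.7.6a, FastQC 0.11.7 and the build names GRCm38 and mm10 come from the submitters' processing notes. The counting command in the headers sets no strand option although the kit marks strand, so counts of overlapping and antisense genes are uncertain, as are those of pseudogenes with near-identical copies.

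The 17 libraries of the 4 genotype and diet groups were fitted together in R 4.3.3 with edgeR 4.0.16 (low-count filter by group, TMM scaling, group and batch terms, robust quasi-likelihood F-test, 2-sided, Benjamini-Hochberg adjustment over all genes kept, threshold 0.05). The SE is the log2 difference divided by the square root of F. CPM values are TMM-scaled. Alternatives were DESeq2 1.42.0, limma 3.58.1 (voom with sample quality weights), other scaling and filters, the regular-diet libraries alone, no batch term, offsets for gene length and GC content, a replicate block, and each library left out. The fit was also run on counts simulated from its own estimates of level and spread. They held no length trend and no outlying library, so that run cannot test the effect of either. Figures were drawn with Python 3.11.15 and matplotlib 3.10.9.

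The members and the gene lists were chosen with earlier results of these data known, so list counts are descriptions. Genes named are those past the threshold, the 12 of smallest p higher and lower (unnamed clones and predicted genes left out), up to 4 members of each list with the smallest p, members of the sodium channel and NAD lists, genes called by DESeq2 or limma-voom, tested genes within 500 kb of a gene that passed, and the 10 most abundant per kilobase. Not every gene so chosen is printed, and some are not reported here. Cdh2, Cdh5, Gja1 and Ankrd1 lie outside that rule and were picked with their values known. Replicate numbers from the titles exist in both genotypes for some libraries only. The titles of NaV1.5_RD replicate 4 and Ctrl_RD replicate 1 carry no number, and theirs were assigned here. Deviations from the group means correlated at 0.0828 and 0.0456 for the libraries numbered 2 and 3, so the numbers were not taken to pair the samples. The largest correlation of any pair was 0.32, between NaV1.5_RD replicate 4 and Ctrl_RD replicate 4. These correlations cannot exclude a pairing. No 2 libraries held identical values.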

Additional observations from a re-analysis of the deposited data

Results flagged for a closer look

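Among 81 named genes, 16 of 162 groups of 4 libraries held a library whose gap to its nearest neighbour, as a share of the group's range, exceeded Dixon's 95% critical value. For independent, normally distributed values this flags about 1 in 20 groups. These genes were picked by p or by list and share the same 8 libraries, so that rate cannot be taken as the chance rate here. No explanation was tested, and all values are CPM.

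In NaV1.5_RD replicate 4, Ndufc2 stood at 296.7 against 177.6 to 190.1 in the other 3 NaV1.5_RD libraries, Slc39a8 at 39.38 against 18.14 to 21.1, and Cyba, a subunit of the NADPH oxidase, at 59.1 against 45.79 to 47.34. The same library was low for Ddx42 at 26.67 against 30.43 to 31.13, for 2010001K21Rik at 8.453 against 10.41 to 10.65, and for the immediate early gene Fosb at 0.06873 against 0.4167 to 0.4489.

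In NaV1.5_RD replicate 3, Acta1 stood at 10.06 against 0 to 0.8588, Sbk3 at 921.3 against 783.8 to 791.2, and Nt5e at 13.87 against 18.79 to 19.31. In NaV1.5_RD replicate 2, Rps6ka6 was 2.469 against 3.214 to 3.277 and Nmnat3 was 14.28 against 16.34 to 16.61. In NaV1.5_RD replicate 1, the endothelial marker Ly6c1 was 63.03 against 96.84 to 102.

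Among control libraries, Ctrl_RD replicate 1 was low for Gm44751 at 0.7806 against 3.002 to 3.265 and for Manf at 35.52 against 39.91 to 40.53. Ctrl_RD replicate 2 was high for Esrrb at 27.33 against 19.71 to 20.32, which is what makes its groups overlap. Ctrl_RD replicate 3 was high for the cell division gene Ube2c at 2.125 against 0.6275 to 0.688.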

How the results depend on the processing

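Cdh6 was called in 17 of 17 settings, and Scn10a in 14 of 17 with the same direction in all. The main counts of 1 higher and 1 lower gene were 6 and 4 with no low-count filter, 20 and 7 with DESeq2, and 12 and 3 with limma-voom. There were 2 higher genes with no batch term and 3 with offsets for gene length and GC content, and 0 lower genes with the regular-diet libraries alone. With the replicate block, 0 lower genes were called and Scn10a differed by -1.39 (edgeR adjusted p = 0.0612). That fit used only libraries with a number in their title, and whether these numbers pair the samples is not known. With each library left out, 1 to 3 genes were higher and 0 to 2 lower: 0 lower without NaV1.5_RD replicate 1, 3 higher and 2 lower without NaV1.5_RD replicate 3 or 4, 2 lower without Ctrl_RD replicate 1, and 2 higher without Ctrl_RD replicate 2 or 4. The cause of these shifts was not tested. The count of genes whose genotype difference differed between diets was 0 in every setting run for it. Acta1 ran from -0.1106 (without NaV1.5_RD replicate 3, a reversal) to 2.973 with each library left out, and the median of the Schwann and neuron list went to 0.2272 without Ctrl_RD replicate 4. DESeq2 size factors and a filter of 1 CPM left the counts as they were. Depth and 4 libraries a group limit low genes most: in the 4042 lowest genes, the interval lay within 2-fold for 43.1% of genes.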

Other observations

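Some well-expressed genes varied between single libraries far more than between genotypes. They were picked for their values, out of 10757 genes with a mean of at least 5 CPM, whose median SD of log2 CPM within groups was 0.167. Gm13394 had 2.87, 127, 2.86 and 2.61 CPM in NaV1.5_RD against 2.11, 124, 2.49 and 2.47 CPM in Ctrl_RD. Nearly all of it was in 1 library of each genotype, replicate 2, and both titles carry that number. The pseudogene Ldhb-ps was high in the same libraries, with 5.79, 44.6, 4.76 and 6.46 CPM in NaV1.5_RD against 5.24, 42.8, 3.73 and 5.80 CPM in Ctrl_RD. Gdpd3, a phospholipase D family gene, had 1.80, 27.0, 2.44 and 1.58 CPM in NaV1.5_RD against 1.40, 2.06, 23.0 and 31.8 CPM in Ctrl_RD and was high in the same NaV1.5_RD library but in other control libraries.

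Myl2, the ventricular myosin light chain, had 8.98, 34.2, 193 and 12.9 CPM in NaV1.5_RD against 80.2, 3.13, 6.06 and 4.71 CPM in Ctrl_RD. Its high libraries belonged to both genotypes. Cfd, the adipocyte protease adipsin, had 0.224, 23.3, 16.4 and 5.15 CPM in NaV1.5_RD against 12, 4.50, 8.6 and 18.8 CPM in Ctrl_RD.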
